A study of Rattus norvegicus with 6 samples.

Results

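The genes described here are 38 structural and regulatory genes of the extracellular matrix, the collagens, laminins, nidogens, glycoproteins and proteoglycans around kidney cells together with enzymes and growth factors that act on them. Members were taken by name: a probe set belonged when the platform annotation gave it 1 gene symbol and that symbol was a member. The rule used no measured value, but the members were chosen with earlier results of these data known. Of the 38 genes, 37 had at least 1 probe set, with 61 probe sets in all of the 31099 on the array, and Col4a3 was not analysed here. The array's annotation names 14218 genes. The genes fall into basement membrane (15 members), interstitial matrix (17) and regulators of matrix turnover (6).

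Kidney RNA came from male Dahl salt-sensitive (S) rats and from male rats of 1 congenic strain, in which a piece of chromosome 9 of the R strain replaces that of S. The rats shared a birth date, were weaned at 30 days, lived 1 S and 1 congenic rat to a cage, ate chow with 2% salt and were killed at 53 days of age, so strain is the only labelled difference. Each group had 6 rats, pooled by 2 into 3 RNA samples, and each pool was hybridised to 1 Affymetrix Rat Genome 230 2.0 array. Signals are MAS5 values, linear and 1 per probe set, and the congenic strain is 1 line, so every difference between the groups is a difference from that line.

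Basement membranes are thin sheets under epithelia and around capillaries, built from a collagen IV network and a laminin network that nidogens link together. In the kidney they form part of the glomerular filter and surround every tubule. The interstitial matrix between tubules consists of fibrillar collagens with fibronectin, microfibrils and small proteoglycans, and is made largely by fibroblasts. Salt-induced hypertension of Dahl S rats is known to be accompanied by renal fibrosis, in which interstitial collagen accumulates, often downstream of the cytokine TGF-beta.

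Several members lie side by side in the rat genome, and sequences from between divergent starts are shown first. Col4a2 and Col4a1, whose products form one collagen IV trimer, are transcribed in opposite directions from starts separated by 76 bases on chromosome 16. Col4a4 and Col4a3 are arranged in the same way on chromosome 9, the chromosome of the introgressed segment, with 412 bases between their starts. Only the 250 of these next to the Col4a4 start are shown. Col1a2 represents the fibrillar collagens of the interstitium, and Timp3, an inhibitor of matrix proteases, is shown because its probe sets differed most from each other in the comparison of strains. The sequences are from RefSeq, assembly GRCr8, and lie upstream of the annotated start: chr16:84885521-84885596 on the plus strand, chr9:91323578-91323827 on the minus strand, chr4:33518307-33518556 on the plus strand and chr7:19459559-19459808 on the minus strand. Capitals mark 3 promoter motifs, none overlapping another, searched for on both strands. The GC box, the site of Sp1-type factors, was searched as GGGCGG. The box of NF-Y, named for its letters, was searched as CCAAT. For the TATA box, which positions the polymerase, the letters were TATAAA. Read on the other strand, the first becomes CCGCCC and the second ATTGG.
Col4a2 and Col4a1: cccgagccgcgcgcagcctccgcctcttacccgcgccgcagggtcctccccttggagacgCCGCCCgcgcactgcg
Col4a4: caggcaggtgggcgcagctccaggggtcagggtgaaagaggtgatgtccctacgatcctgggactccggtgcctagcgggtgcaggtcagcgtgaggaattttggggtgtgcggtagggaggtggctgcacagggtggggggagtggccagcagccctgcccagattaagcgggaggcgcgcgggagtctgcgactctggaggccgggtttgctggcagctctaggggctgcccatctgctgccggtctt
Col1a2: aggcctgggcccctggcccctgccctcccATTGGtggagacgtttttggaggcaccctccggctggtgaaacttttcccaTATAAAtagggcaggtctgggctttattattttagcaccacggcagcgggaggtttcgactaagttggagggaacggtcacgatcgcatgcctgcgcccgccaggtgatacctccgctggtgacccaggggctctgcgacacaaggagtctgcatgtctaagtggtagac
Timp3: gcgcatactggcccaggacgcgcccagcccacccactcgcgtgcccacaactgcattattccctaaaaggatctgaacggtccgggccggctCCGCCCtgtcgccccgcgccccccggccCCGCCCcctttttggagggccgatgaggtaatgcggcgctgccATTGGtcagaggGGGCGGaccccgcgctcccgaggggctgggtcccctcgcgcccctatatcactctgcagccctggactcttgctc

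The interval between Col4a2 and Col4a1 was 78.9% G and C and held 1 GC box, a motif found in 19.3% of stretches of that length directly upstream of the 27457 starts in the promoter table. The 250 bases of Col4a4 held none of the 3 motifs. Those of Col1a2 held 1 CCAAT box and 1 TATA box, and those of Timp3 held 3 GC boxes and 1 CCAAT box. Among the 27 members with an entry in the promoter table, 15 (55.6%) had a GC box in the 250 upstream bases, against 32.4% of all promoters. A CCAAT box was present in 7 members (25.9%, against 34.3%) and a TATA box in 4, Ccn2, Col1a2, Lama4 and Postn (14.8%, against 13.1%). A match of these letters is a description and does not show that a factor binds there.

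Any pair of arrays had a Spearman correlation of at least 0.969, and median signals ran from 42.9 to 46.0. The labelled tissue was checked against its markers: the summed signal of 7 tubule genes, among them Umod, Slc34a1 and Aqp2, ran from 27158 to 28770.0. Congenic replicate 1 carried liver transcripts, with a summed signal of 10190 over 8 liver genes where the other arrays had 473 to 539.9. Alb made up 6683 of that sum. Of the 7 tested liver genes 6 were highest on this array, whereas Cyp2c11 measured 177 there and 207 on S replicate 1. Congenic replicate 3 carried adrenal transcripts, 5506 over 5 genes where the others had 128 to 142. The 3' over 5' ratio of actin, which rises as RNA breaks down, ran from 6.54 to 9.42 in S pools, highest in replicate 1, and from 6.15 to 7.17 in congenic pools. Summed over 6 genes each, urothelium markers had a signal of 517 to 569.8 in S and 423 to 495 in congenic pools, and fat markers 1514 to 2018 and 1225 to 1849. Because of the liver and adrenal transcripts, the main single-gene results for members are also given against congenic replicate 2 alone. That does not remove the urothelium difference, since congenic replicate 2 had a sum of 495, below every S pool.

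The comparison of strains asks whether the congenic segment goes with a different level of matrix transcripts in the kidney. No member passed the test. Of the 61 member probe sets, 53 were bright enough to be tested, covering all 37 measured genes, and 0 of the 53 had an adjusted p under 0.05 in limma's moderated test across 18625 probe sets. The background over all probe sets was 0% as well. An unadjusted p under 0.05 was seen for 4 of 53 (7.55%, against 6.61% of all tested probe sets), 2 higher (background 3.1%) and 2 lower (3.52%) in congenic pools. The strains did not overlap for 5 of 53 (9.43%, against 12.5%), 1 higher (5.71%) and 4 lower (6.79%). The log2 fold change, congenic over S, was above 0 for 31 (background 48.7%) and below 0 for 22 (51.3%), and its 95% interval lay within 0.5 of 0 for 50 (86.3%). The shares of calls lie near the background, so neither is a result about the matrix genes. The 8 untested probe sets, of Lama4, Lama5, Col12a1, Col6a2, Col6a3 and Mmp2, had signals of 0.577 to 24.9, and each of these genes has another probe set that was tested.

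With 1 probe set per gene, the one of highest mean, 22 of 37 genes (59.5%) had a positive log2 fold change, against 47.2% of all 10648 genes, and 15 a negative one, against 52.8%. The median was 0.020 over the 37 genes and -0.0070 over all genes. For all 37 genes the 95% interval lay within 0.5 of 0 on the log2(signal + 16) scale, which is 1.41-fold in either direction; 89.5% of all genes shared this. Of the 37, 1 gene, Nid2, had an unadjusted p under 0.05, against 6.62% of all genes, being lower in congenic pools (background 3.66%, and 2.96% for higher). The strains did not overlap for 3 genes (8.11%, against 12.7%), 0 higher (5.61%) and 3 lower (7.06%). The added 16 pulls fold changes of dim genes towards 0, so for Lum, Tgfb1 and Col4a4, with mean signals between 29.3 and 44.4, the interval covers less than it would for signal alone. In kidney pools, fewer matrix-producing cells and less transcript per cell cannot be told apart.

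**Figure D1:**
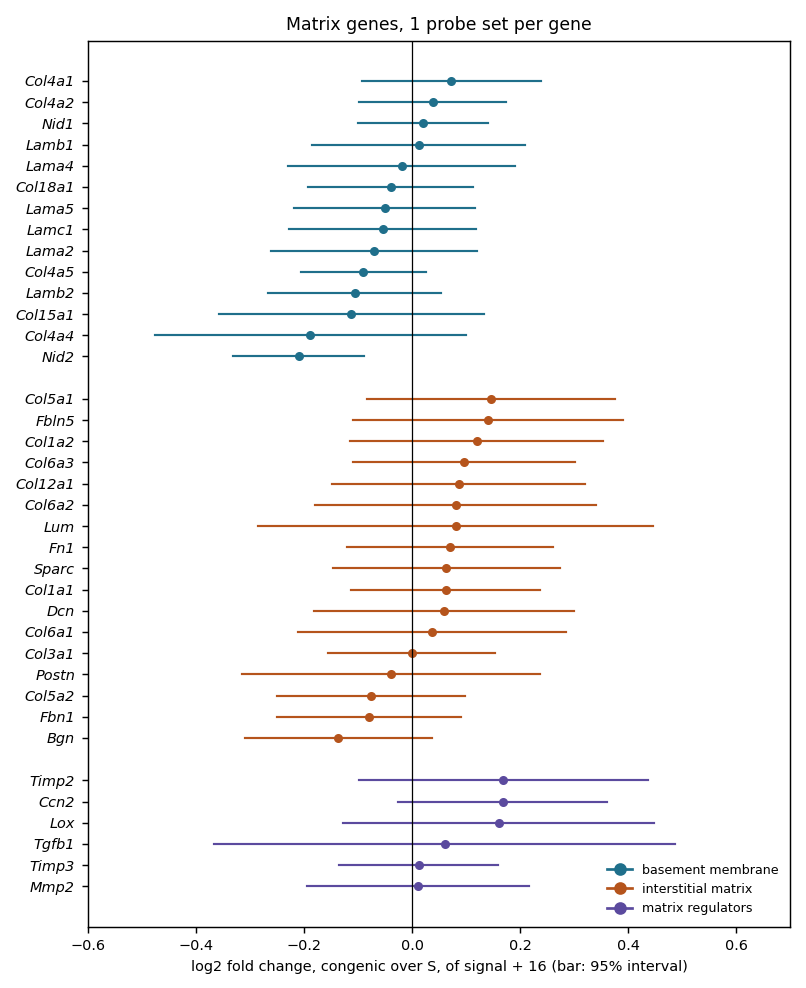
Log2 fold change of signal + 16, congenic over S, for the 37 measured matrix genes with 1 probe set each. Points are limma estimates from 3 arrays per strain and bars are 95% intervals, coloured by gene group. All intervals lie within 0.5 of 0, and Nid2 is the one gene whose interval leaves out 0.

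Among basement membrane genes, 10 of 14 measured members had a negative log2 fold change and 4 a positive one (median -0.052), and 0 passed the adjusted threshold. The counts of negative and positive values were not stable. They were 11 and 3 with quantile normalization, 7 and 7 without S replicate 3, and 8 and 6 with the mean over probe sets. The collagen IV chains of general basement membranes differed little. Col4a1 measured 1278, 1219 and 1503 in S pools and 1414, 1383 and 1396 in congenic pools. The S values span the congenic ones, and the difference was a log2 fold change of 0.073 (SE 0.075, 95% interval -0.092 to 0.24). A second probe set of Col4a1 had a log2 fold change of 0.032. Its divergently transcribed partner Col4a2 measured 813, 782 and 736 in S pools and 771, 820.2 and 801 in congenic pools, a log2 fold change of 0.038 (SE 0.061, 95% interval -0.097 to 0.17). On S replicate 3 the partners parted, Col4a1 being at its highest and Col4a2 at its lowest of the 6 arrays.

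Col4a4 and Col4a5 encode chains of a collagen IV trimer that, in the kidney, is found in the mature glomerular and distal tubular basement membranes. Mutations in them cause Alport nephropathy. Col4a5 measured 1501, 1416 and 1494 in S pools and 1369, 1413 and 1359 in congenic pools. Every congenic value lay below every S value, the nearest pair being S replicate 2 and congenic replicate 2, and the difference was small, a log2 fold change of -0.090 (SE 0.052, 95% interval -0.21 to 0.026), limma adjusted p = 0.782. Col4a4 was dim, at 36.0, 37.8 and 32.9 in S pools and 30.6, 24.9 and 32.5 in congenic pools. Its groups did not overlap either, the log2 fold change was -0.19 (SE 0.13, limma adjusted p = 0.809), and congenic replicate 2 held the lowest value. Among the 14 genes the strains did not overlap for 3 (21.4%, against 12.7% of all genes), Col4a4, Col4a5 and Nid2. All 3 were lower in congenic pools, where 7.06% of all genes were lower without overlap. The list is short and was not tested, so these shares are a description.

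Nidogens cross-link the laminin and collagen IV networks, and their genes gave unlike values. Nid2 measured 1030.5, 1041 and 977 in S pools and 873, 888 and 867 in congenic pools. All congenic pools were below all S pools, at 876 ± 10.6 against 1016 ± 34.7 (mean ± SD, n = 3 each). The fit gave a log2 fold change of -0.21 (SE 0.055, 95% interval -0.33 to -0.088), the smallest p of the 37 genes, and it did not pass adjustment over all probe sets (limma adjusted p = 0.693). Under 15 alternative settings the log2 fold change of Nid2 ran from -0.24 to -0.19. Against congenic replicate 2 alone, without the arrays that hold liver and adrenal transcripts, it was -0.19. The homologue Nid1 measured 3345, 3686 and 3403 in S pools and 3421, 3682 and 3470.4 in congenic pools, a log2 fold change of 0.020 (SE 0.054, 95% interval -0.10 to 0.14). Nid1's second, dimmer probe set had a log2 fold change of -0.0090.

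Laminins are trimers of an alpha, a beta and a gamma chain. Of the 6 laminin genes, 5 had negative log2 fold changes. Lamb2, the beta chain of the mature glomerular basement membrane, measured 548, 629.6 and 644 in S pools and 578, 554 and 554 in congenic pools. S replicate 1 lay below all congenic arrays and the other S arrays above them, with a log2 fold change of -0.11 (SE 0.072, 95% interval -0.27 to 0.054). Lamb1, its counterpart in most other basement membranes, had a log2 fold change of 0.012, with congenic replicate 1 highest at 719. The alpha chain genes Lama5, Lama2 and Lama4 had log2 fold changes of -0.050, -0.070 and -0.019. Lamc1, the gamma chain common to most laminins, gave different answers by probe set. The bright probe set measured 434, 423 and 502 in S pools and 428, 423 and 453 in congenic pools, a log2 fold change of -0.055 (SE 0.078, 95% interval -0.23 to 0.12). The dim one measured 53.3, 55.0 and 77.8 in S pools and 87.4, 85.8 and 72.3 in congenic pools, a log2 fold change of 0.34 (SE 0.14, 95% interval 0.032 to 0.64), and S replicate 3 overlapped the congenic values. Its limma adjusted p was 0.746, and against congenic replicate 2 alone its log2 fold change was 0.40.

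Col15a1 and Col18a1 encode collagens of the outer basement membrane zone, and the C-terminal fragment of Col18a1's product is endostatin. Col15a1 measured 149, 158 and 158 in S pools and 153, 118 and 160.2 in congenic pools, with a single low array, congenic replicate 2. The same array was low in its second probe set, at 18.3 where the other 5 arrays had 40.6 to 47.7. The log2 fold changes were -0.11 and -0.27. Against congenic replicate 2 alone they were -0.36 and -0.80, and without that array 0.011 and 0.0033, so both rest on it. The probe sets of Col18a1 had log2 fold changes of -0.039 and 0.084.

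The interstitial genes showed no common difference between strains: 12 of 17 had a positive and 5 a negative log2 fold change (median 0.063), and 0 passed the adjusted threshold. Without S replicate 2 the counts were 6 and 11, and without congenic replicate 3 they were 9 and 8. Likewise 0 of 17 had an unadjusted p under 0.05, and in 0 of 17 did the strains stay apart without overlap, where 12.7% of all genes did. Fibrillar collagens I and III, the bulk of fibrotic matrix, were close in both strains. Col1a1 measured 703, 689 and 805 in S pools and 763, 707 and 825 in congenic pools, a log2 fold change of 0.062 (SE 0.079, 95% interval -0.11 to 0.24), and its second probe set had a log2 fold change of 0.12. Col3a1, which lies on chromosome 9, measured 2113, 2084 and 2407 in S pools and 2122, 2104 and 2369.5 in congenic pools. The S mean was 2201 ± 179 and the congenic mean 2199 ± 148 (SD, n = 3 each), and the fit gave a log2 fold change of -0.00073 (SE 0.070, 95% interval -0.16 to 0.15). Within each strain the spread of Col3a1 exceeded the difference between strains, with replicate 3 the highest of both.

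Col1a2, the partner of Col1a1 in collagen I, had probe sets of opposite sign. One measured 776, 737 and 913 in S pools and 797, 817 and 1031 in congenic pools, a log2 fold change of 0.12 (SE 0.11, 95% interval -0.11 to 0.35). The other measured 822, 764 and 878 in S pools and 729, 715 and 877 in congenic pools, a log2 fold change of -0.088 (SE 0.086, 95% interval -0.28 to 0.10). Neither differed beyond its interval, and replicate 3 was the highest array of each strain in both. The collagen V chains, which nucleate collagen I fibrils, also had values of both signs: Col5a1 had log2 fold changes of 0.15 and -0.10 in its probe sets and Col5a2 of -0.076 and -0.071. In its brighter probe set Col5a1 measured 173, 178 and 218 in S pools and 195, 206 and 233 in congenic pools, and S replicate 3 lay among the congenic values. Collagen VI forms beaded filaments around cells, and its chains Col6a1, Col6a2 and Col6a3 had log2 fold changes of 0.037, 0.081 and 0.097. Col6a3 measured 502, 470.3 and 572 in S pools and 578, 487 and 589 in congenic pools. Col12a1, a collagen on the surface of fibrils, had a log2 fold change of 0.086.

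The glycoproteins and proteoglycans gave the same range. Fn1, the gene of fibronectin, onto which collagen is assembled, measured 1400.2, 1209 and 1562 in S pools and 1402, 1417 and 1542 in congenic pools, a log2 fold change of 0.070 (SE 0.086, 95% interval -0.12 to 0.26). Liver is a main source of plasma fibronectin, and on the array with liver transcripts Fn1 measured 1402, inside the range of the other arrays. The part of liver tissue in that value was not tested. Sparc, a collagen-binding matricellular protein, measured 897, 831 and 1031 in S pools and 863, 946 and 1077 in congenic pools, a log2 fold change of 0.063 (SE 0.095, 95% interval -0.15 to 0.27), and 0.0065 in its second probe set. Fbln5, which organises elastic fibres, measured 463, 390.5 and 536 in S pools and 449.8, 526 and 554 in congenic pools, a log2 fold change of 0.14 (SE 0.11, 95% interval -0.11 to 0.39). The microfibril gene Fbn1 had log2 fold changes of -0.079 and 0.096. It measured 391, 376 and 421 in S pools and 349, 372 and 403 in congenic pools in the brighter probe set. Bgn, the small proteoglycan biglycan, measured 425, 421 and 468 in S pools and 368, 393 and 432 in congenic pools, a log2 fold change of -0.14 (SE 0.078, 95% interval -0.31 to 0.037), and its 95% interval includes 0. The related proteoglycans Dcn and Lum, adjacent on chromosome 7, had log2 fold changes of 0.060 and 0.081, and Postn, a matricellular gene induced in renal injury, of -0.039.

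Medians over the interstitial genes lay further apart between pools of one strain than between the strains. The level of each gene was expressed as log2(signal + 16) minus its mean over the 6 arrays. The median over the 17 genes was -0.055, -0.17 and 0.14 for S replicates 1, 2 and 3, and -0.049, -0.046 and 0.15 for congenic replicates 1, 2 and 3. Thus the third array of each strain was high, S replicate 2 was low, and the strains overlapped. All 17 genes were above their own mean on S replicate 3 and 15 on congenic replicate 3, whereas 2 were on S replicate 2. Over all 10648 genes these shares were 49.9%, 50.8% and 53.1%. Of the 3 S arrays, replicate 3 was the highest for 16 of 17 genes (94.1%, against 32.4% of all genes) and replicate 2 the lowest for 14 (82.4%, against 28.1%). Of the 3 congenic arrays, replicate 3 was the highest for 15 (88.2%, against 34.8%). The pattern was noticed in these data and describes 6 arrays, and genes of one tissue component are not independent.

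**Figure D2:**
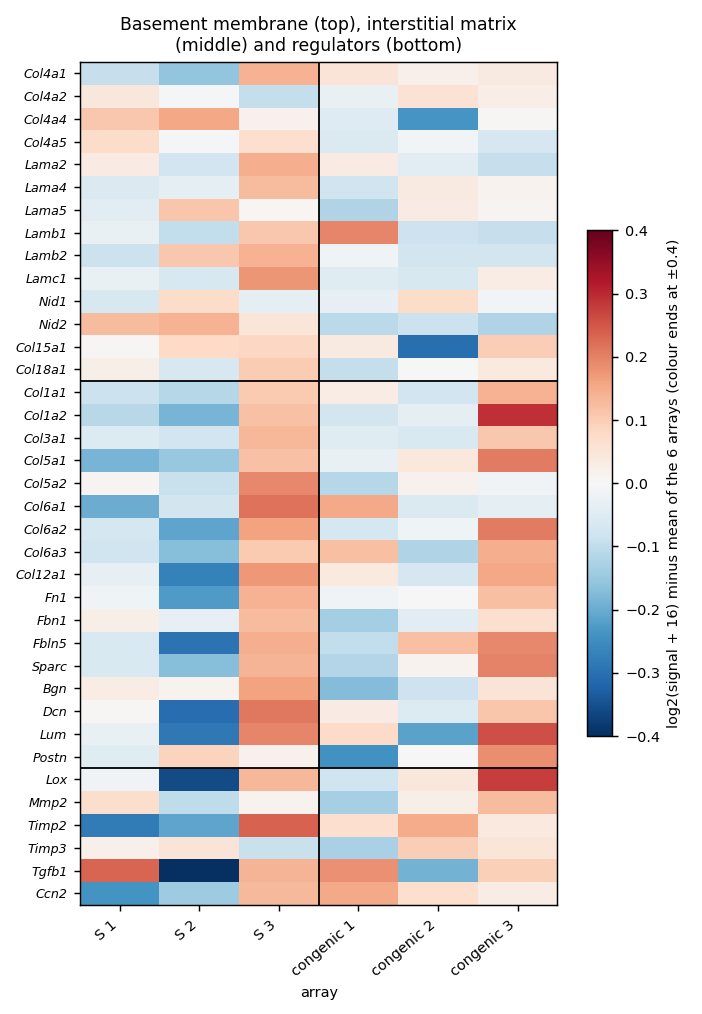
Level of each matrix gene on the 6 arrays, as log2(signal + 16) minus the gene's mean over the arrays, with red above and blue below the mean. Rows are genes in 3 blocks and columns are arrays. In the interstitial block S replicate 3 is above the mean for all 17 genes and congenic replicate 3 for 15, while S replicate 2 is above it for 2.

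Basement membrane genes followed this pattern less: their medians were -0.012, -0.0083 and 0.091 for S and -0.040, -0.028 and 0.0091 for congenic pools, with 12 of 14 genes above their mean on S replicate 3. Those of the regulators were 0.0017, -0.18 and 0.13 for S and -0.0067, 0.057 and 0.072 for congenic pools. Markers of fibroblasts and pericytes (8 genes, among them Pdgfra, Pdgfrb, Thy1 and Vim) had a median of 0.17 on S replicate 3 but 0.0057 on congenic replicate 3 and -0.018 on S replicate 2. S replicate 2 was the lowest S array for 1 of these 8 genes (12.5%), replicate 3 the highest for 5 (62.5%), and congenic replicate 3 the highest congenic array for 4 (50.0%). Their summed signal was 4158, 3806 and 4199 in S pools and 3764, 3769.7 and 4028 in congenic pools. Of its brightest genes, Pdgfra measured 1698, 1324 and 1466 in S pools, lowest on S replicate 2. Vim measured 1146, 1151 and 1310 in S pools, highest on S replicate 3. Of these markers 8 of 8 had a negative log2 fold change, against 52.8% of all genes, with a median of -0.062 (all genes -0.0070) and 0 past the threshold. S replicate 3 was the highest of the 6 arrays for 5 of the 8, and the count without that array was not analysed here. Congenic replicate 3 is also the array with adrenal transcripts, and the actin ratio was lowest of the S arrays on S replicate 3 but highest of the congenic arrays on congenic replicate 3. The part of cell content, adrenal tissue or RNA integrity in the pattern was not tested. The sums of smooth muscle markers (6 genes) ran from 705 to 892 on the S and 698 to 784 on the congenic arrays, those of endothelium (6 genes) from 1857 to 2203 and 1759.7 to 2081, and those of podocytes (5 genes) from 1092 to 1242 and 1098 to 1263.

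**Figure D3:**
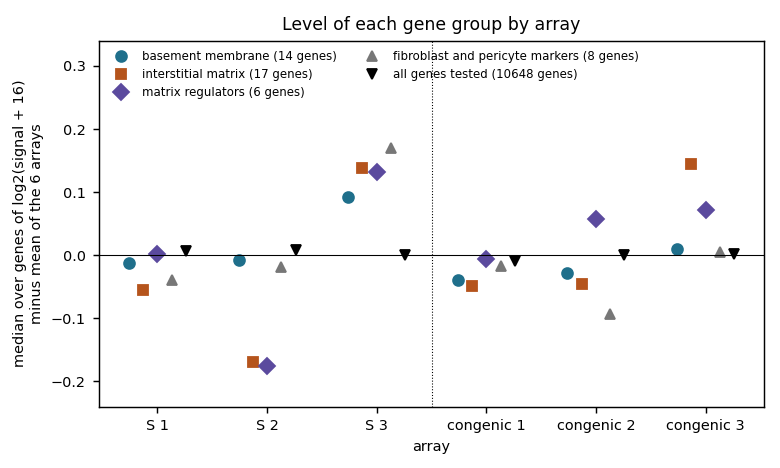
Median level of each gene group by array, as log2(signal + 16) minus the mean over the 6 arrays. Each symbol is the median over the genes of 1 group on 1 array. Interstitial genes stand at 0.14 on S replicate 3 and 0.15 on congenic replicate 3 and at -0.17 on S replicate 2, while the median of all genes runs from -0.0089 to 0.0081.

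The sign of the interstitial median depended on which pools were kept. With the full set it was 0.063, without S replicate 3 it was 0.16, without S replicate 2 it was -0.0056, and without congenic replicate 3 it was 0.0038. Against congenic replicate 2 alone it was -0.023. For basement membrane genes the median was negative each time an array was left out, between -0.081 and -0.0067, the latter without S replicate 3.

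In their brightest probe sets all 6 regulators had positive log2 fold changes (median 0.11), and 0 passed the adjusted threshold. The count of positive values was not stable: it was 4 without S replicate 2 or without congenic replicate 3. It was 5 when S replicate 3 or either of congenic replicates 1 and 2 was left out, against congenic replicate 2 alone, and with the mean over probe sets. With quantile normalization it was also 5, Timp3 then being at -0.0053. Ccn2, a matricellular growth factor induced by TGF-beta, measured 1077, 1151 and 1394 in S pools and 1417, 1336 and 1299 in congenic pools. S replicate 3 lay within the congenic range and the other S arrays below it, with a log2 fold change of 0.17 (SE 0.087, 95% interval -0.026 to 0.36), limma adjusted p = 0.782. Without S replicate 3 the log2 fold change of Ccn2 was 0.27, without S replicate 1 it was 0.090, and against congenic replicate 2 alone 0.15. Tgfb1 itself was dim and variable, at 40.7, 19.1 and 37.1 in S pools and 38.8, 26.4 and 35.6 in congenic pools, a log2 fold change of 0.060 (SE 0.19, 95% interval -0.37 to 0.49). Its lowest arrays were replicate 2 of each strain.

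Lox, the lysyl oxidase that cross-links collagen and elastin, had positive log2 fold changes in both probe sets. The brighter measured 274, 212 and 305 in S pools and 261, 286 and 338 in congenic pools, a log2 fold change of 0.16 (SE 0.13, 95% interval -0.13 to 0.45). The other measured 192, 131 and 203 in S pools and 244, 199.7 and 242 in congenic pools, a log2 fold change of 0.37 (SE 0.14, 95% interval 0.052 to 0.69), limma adjusted p = 0.746. The groups overlapped in both, and S replicate 2 was the lowest array in both. Without that array the second probe set had a log2 fold change of 0.19, and against congenic replicate 2 alone 0.20.

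Timp3, the inhibitor that binds to the matrix, had 4 tested probe sets that disagreed. In one, all congenic arrays were below all S arrays, at 2352, 2129 and 1812 in S pools and 1739, 1742 and 1635 in congenic pools. The S mean was 2098 ± 271 and the congenic mean 1705 ± 60.8 (SD, n = 3 each), and the fit gave a log2 fold change of -0.29 (SE 0.084, 95% interval -0.47 to -0.10), limma adjusted p = 0.693. Without S replicate 1 the log2 fold change of this probe set was -0.20, without S replicate 3 it was -0.39, and against congenic replicate 2 alone -0.26. In a second, all congenic arrays were above all S arrays, at 425, 392 and 416 in S pools and 439, 447 and 442 in congenic pools, a log2 fold change of 0.10 (SE 0.064, 95% interval -0.039 to 0.24). The brightest measured 3291, 3365 and 3055 in S pools and 2969.8, 3478 and 3359 in congenic pools, a log2 fold change of 0.012 (SE 0.066, 95% interval -0.13 to 0.16), and the dimmest had a log2 fold change of 0.013. Where these probe sets lie in the transcript was not analysed here. Timp2, which also assists activation of pro-MMP2, measured 273, 287 and 397 in S pools and 351, 372 and 344 in congenic pools, a log2 fold change of 0.17 (SE 0.12, 95% interval -0.098 to 0.44), and -0.017 in its dim second probe set. Mmp2, the gelatinase that cleaves collagen IV, had a log2 fold change of 0.010.

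**Figure D4:**
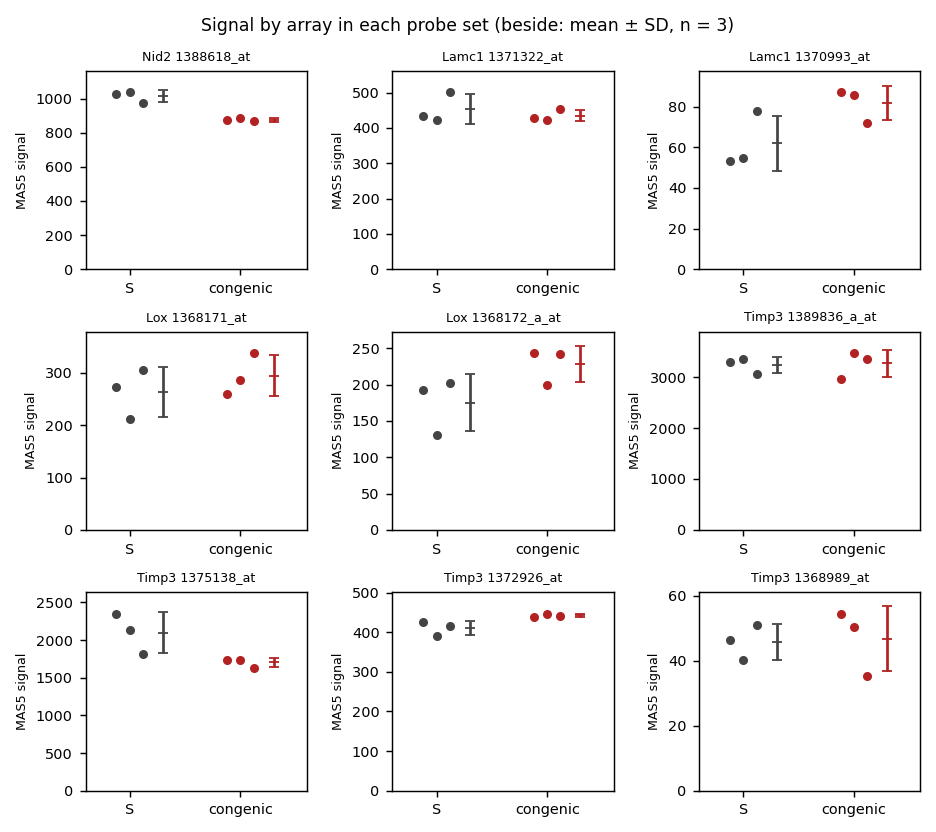
MAS5 signal of every tested probe set of Nid2, Lamc1, Lox and Timp3, the genes with a probe set at an unadjusted p under 0.05. Each point is 1 array, grey for S and red for congenic, with the mean and SD of 3 arrays beside it, and axes start at 0. The Timp3 probe sets differ in direction, and those of Lamc1 do as well.

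Of the 14 genes with more than 1 tested probe set, 8 had log2 fold changes of both signs: Col18a1, Col1a2, Col5a1, Fbn1, Lamc1, Nid1, Timp2 and Timp3. The widest gaps between probe sets of a gene were 0.39 on the log2 scale, for Timp3 and for Lamc1, and exceed the fold change of every gene by its brightest probe set. For Nid2 the array has 1 probe set, so its value has no such check.

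The 5 measured members on chromosome 9 were Col3a1, Col5a2, Col4a4, Fn1 and Col6a3, of which Col3a1 and Col5a2 are adjacent. Their log2 fold changes ran from -0.19 for Col4a4 to 0.097 for Col6a3, with a median of -0.00073, 2 higher and 3 lower, and 0 passed. Whether any of them lies in the introgressed segment was not analysed here.

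Other genes of the matrix gave 0 past the adjusted threshold in either direction in each of 6 lists, in which higher and lower stand for log2 fold changes above and below 0. In the brightest probe set of each gene, an unadjusted p under 0.05 was seen for Efemp1, P4ha1, Plau and Ctsk, where 6.62% of all genes had one. Further probe sets of Plau, Itgb1 and Itga6 also had one, with log2 fold changes of 0.21, 0.22 and 0.22, and Itga6 was named after its values were seen. Of 8 tested genes of other basement membrane components 4 were higher and 4 lower (median -0.027), with Lama3 at -0.18 and the proteoglycan Agrn at -0.084. Of 23 other interstitial genes 15 were higher and 8 lower (median 0.028), with Col8a2 at 0.14 and the fibulin Efemp1 at -0.24. Efemp1 measured 240.5, 271 and 229 in S pools and 218, 212 and 191 in congenic pools, without overlap. In this list Vtn, the plasma protein vitronectin made by liver, measured 16.2, 22.2 and 15.0 in S pools and 195, 8.69 and 15.0 in congenic pools, so its high value belongs to the array with liver transcripts. Vtn was singled out after its values were seen.

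Of 13 genes of collagen processing 9 were higher and 4 lower (median 0.031). P4ha1, a prolyl hydroxylase subunit that hydroxylates procollagen and is induced by hypoxia, measured 253, 321 and 305 in S pools and 403, 415 and 343 in congenic pools. All congenic values were above all S values, a log2 fold change of 0.39 (SE 0.10, 95% interval 0.16 to 0.61), limma adjusted p = 0.693. Under 15 alternative settings, congenic replicate 2 alone among them, the log2 fold change of P4ha1 ran from 0.29 to 0.49. The collagen chaperone gene Serpinh1, also a heat shock gene, measured 577, 736 and 827 in S pools and 815, 807 and 832 in congenic pools, a log2 fold change of 0.21 (SE 0.11), with S replicate 1 lowest. S replicate 1 was the lowest of the 6 arrays for 9 of the 13 genes, against 2200 of all 10648, and it is the array with the highest actin ratio. The part of RNA integrity in this was not tested.

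Of 12 proteases and inhibitors 4 were higher and 8 lower (median -0.071). The collagenolytic protease gene Ctsk measured 133, 117 and 140.0 in S pools and 99.1, 97.9 and 111 in congenic pools, without overlap, a log2 fold change of -0.30 (SE 0.099, 95% interval -0.52 to -0.078), limma adjusted p = 0.718. Its log2 fold change ran from -0.36 to -0.22 under the 15 alternative settings. Plau, the urokinase gene, had a log2 fold change of 0.098. Of 13 genes of TGF-beta signalling 9 were higher and 4 lower (median 0.019), with the ligand Tgfb2 at 0.22 and the transducer Smad2 at 0.19. Tgfb2 measured 60.9, 59.99 and 57.3 in S pools and 69.2, 68.6 and 78.5 in congenic pools. Of 15 matrix receptors 8 were higher and 7 lower (median 0.028), with the integrin subunit Itgb1 at 0.094 and the syndecan Sdc1 at -0.17.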

How the data were processed

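Transcript levels were measured in 6 arrays of rat kidney RNA, 3 S and 3 congenic, grouped by the sample titles. The deposited values were linear intensities, made by the authors with MAS5 per the submitters' processing notes. Its version and target are not given in the sources used here. Replicates are separate pools of 2 rats. Their number limits the precision, with a median standard error of 0.11 on the log2 scale.

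The platform annotation gave the symbols, brought up to date by gene ID with RefSeq's GRCr8 table (20832 probe sets with 1 symbol, 436 with several, 9780 non-control ones with none, 20764 matched). No member was on a probe set with several symbols. Promoter sequences came from RefSeq. The 57 control probe sets and 12417 probe sets with a mean log2(signal + 16) below the 40th percentile, a signal of about 25.0, were left out. Limma 3.58.1 (R 4.3.3; lmFit, then eBayes with trend) was run on the remaining 18625, 2-sided, with Benjamini-Hochberg adjustment over all of them. No exact permutation test was run, since 3 arrays against 3 reach 0.1 at best. The fit was also run on simulated data in which probe sets varied independently of each other. The outcome of that run is not reported here, and no result above rests on it. Against congenic replicate 2 alone, that pool was assumed to vary like the S pools. Lists were described by counts and medians with no test.

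Values per array were given for the members of smallest p in each group (6, 6 and 3), those with a probe set at an unadjusted p under 0.05, and 12 main subunits and factors. Those of Nid1, which is outside this rule, were given beside its homologue Nid2. For each other list the 2 genes of smallest p were named. The members and lists were chosen with earlier results of these data known. Alternatives were pseudocounts of 1 and 64, other filters, quantile normalization, median centring, eBayes without trend, a replicate block, each array left out, both congenic arrays with transcripts of another organ left out, and the mean over the probe sets of a gene. The shared replicate numbers were checked for pairing. Over all tested probe sets, deviations from the group means correlated at 0.043, 0.022 and 0.017 between arrays of the same number. Between arrays of different numbers the correlations ran from -0.052 to 0.036. These values were taken as too small to treat the arrays as pairs, and the interstitial genes were not checked apart.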

Additional observations from a re-analysis of the deposited data

How the results depend on the processing

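Under all 15 alternatives other than the mean over probe sets, 0 member probe sets passed limma's adjusted threshold. Over all probe sets the count was 0 except with an array left out, where it ran from 0 to 3 (3 without S replicate 3, 1 without congenic replicate 2), none of them a member. At an unadjusted p under 0.05, shares over all probe sets in the alternative settings were not analysed here. The counts of member probe sets that follow are therefore not a result about the matrix genes. With all arrays kept the count was 4, except for 3 of 43 with the filter at the 60th percentile. With an array left out it was 2 to 9: 2 without S replicate 2 or congenic replicate 1, and 9 without S replicate 3, when Col4a1, Col5a1, Fbln5, Timp2 and Ccn2 joined. Without congenic replicates 1 and 3 together it was 2, both of Col15a1. The basement membrane median ran from -0.081 to -0.0067 with an array left out, the interstitial from -0.0056 to 0.16 and that of the regulators from 0.031 to 0.21. With an array left out, the median of the other basement membrane genes ran from -0.046 to 0.042, of the other interstitial genes from -0.0078 to 0.090 and of collagen processing from 0.012 to 0.15, each highest without S replicate 3. The median of TGF-beta signalling was -0.067 without congenic replicates 1 and 3 together. Of 711 values of the named genes' 48 probe sets, 32 changed sign and 0 passed the adjusted threshold. What the replicate numbers mark is not given in the sources used here. With the replicate block 0 member probe sets passed the adjusted threshold. In that setting 4 were at an unadjusted p under 0.05, Lamc1, Nid2, Lox and Timp3 as without it. The smallest limma adjusted p with the block was 0.056 over all probe sets and 0.44 over members, against 0.145 and 0.693 without it. Among the brightest probe sets of the genes, those of Tgfb1, Lum and Col4a4, all dim, have the widest intervals. The cause of these shifts was not tested.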
